A study of Mus musculus with 12 samples.

Results

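The gene for thrombospondin 1, *Thbs1*, was described together with the genes of its receptors and of the transforming growth factor beta (TGF-beta) pathway that it can activate. The 8 genes were *Thbs1*, its receptors *Cd47*, *Cd36*, *Itgav* and *Itgb3*, the cytokine *Tgfb1* and the TGF-beta receptors *Tgfbr1* and *Tgfbr2*, out of 15651 genes in the expression table. They were chosen by the fall of *Thbs1* TPM with CCS1477 in these libraries, among the largest measured, so that fall is given as a description and was not tested, and *Thbs1* is left out of every count of responding genes. The study asked how leukemia cells with either of 2 opposing epigenetic lesions respond to CCS1477, an inhibitor of the bromodomain of the acetyltransferases p300 and CBP. All 8 genes had values in the table and passed the filter on low values.

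RNA was sequenced from spleen cells of moribund mice with acute myeloid leukemia (AML), enriched for the stem cell factor receptor c-Kit. The *D/F* cells carried Dnmt3afl/fl, Flt3ITD/ITD and Mx1Cre, and the *T/F* cells carried Tet2fl/fl, Flt3ITD/ITD and Mx1Cre. All cells thus shared the internal tandem duplication in *Flt3* and the Cre transgene, whose interferon-responsive Mx1 promoter was not induced, so that the floxed alleles were lost spontaneously and either 1 or both may be gone in a given cell. The ages of these mice are not in the labels. Cells of 3 mice per genotype were cultured with serum, stem cell factor, interleukin 6 and interleukin 3 and received DMSO or CCS1477 for 6 hours, at 4 μM in *D/F* and at 2 μM in *T/F*, which gave 12 libraries. Since each genotype had its own dose, dose and genotype cannot be told apart in any difference between the treated groups. Cells of the same mouse were split between DMSO and CCS1477, and mice are numbered 1 to 3 within a genotype. The Y-linked gene *Eif2s3y* was low in *D/F* mice 2 and 3 and high in *D/F* mouse 1 and in every *T/F* mouse. Comparisons between the genotypes thus also hold any difference of sex that this gene marks.

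Thrombospondin 1 is a large secreted glycoprotein of platelet granules, monocytes and wound matrix. It binds the integrin-associated protein CD47, the scavenger receptor CD36 and the vitronectin receptor formed by integrin αv and integrin β3, and it can release TGF-beta1 from its latent complex. Free TGF-beta1 binds TGF-beta receptor 2, which recruits and phosphorylates TGF-beta receptor 1, and the signal passes through SMAD proteins that restrain the growth of many blood progenitors.

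Values are TPM, a measure of transcript abundance that is scaled for transcript length and library size and allows levels of different genes to be set side by side. In the GENCODE annotation of GRCm38, *Thbs1* (ENSMUSG00000040152) spans chr2:118111876-118127133 on the plus strand and overlaps the antisense long noncoding RNA gene *Gm29233*. The receptor genes *Cd47* (ENSMUSG00000055447) at chr16:49800533-49915010, plus strand, *Cd36* (ENSMUSG00000002944) at chr5:17781690-17888801, minus strand, and *Itgb3* (ENSMUSG00000020689) at chr11:104608000-104670476, plus strand, overlap no other annotated gene. *Itgav* (ENSMUSG00000027087) at chr2:83724397-83806916, plus strand, overlaps *Gm13684* and *Dnmt3l-ps1* on the opposite strand, and the sources used here do not say whether strand was used in the quantification. *Tgfb1* (ENSMUSG00000002603) lies at chr7:25687002-25705077, plus strand, *Tgfbr1* (ENSMUSG00000007613) at chr4:47353222-47414931, plus strand, and *Tgfbr2* (ENSMUSG00000032440) at chr9:116084293-116175360, minus strand, and none of them overlaps another annotated gene.

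RefSeq promoter sequences on GRCm38.p6 were matched for 6 of the 8 members, all but *Thbs1* and *Itgb3*. The window of *Cd36*, which was lower with CCS1477 in 6 of 6 mice, is not printed. The 250 bases before the start site are printed for 4 other members that moved in 1 direction in all 6 mice, *Cd47* and *Tgfb1*, which were lower with CCS1477, and *Itgav* and *Tgfbr1*, which were higher. They are written 5′ to 3′ on the strand of the gene, and capitals mark the GC box GGGCGG read on either strand. The windows are chr16:49855404-49855653 for *Cd47*, chr7:25686752-25687001 for *Tgfb1*, chr2:83724147-83724396 for *Itgav* and chr4:47352972-47353221 for *Tgfbr1*, all on the plus strand.
Cd47: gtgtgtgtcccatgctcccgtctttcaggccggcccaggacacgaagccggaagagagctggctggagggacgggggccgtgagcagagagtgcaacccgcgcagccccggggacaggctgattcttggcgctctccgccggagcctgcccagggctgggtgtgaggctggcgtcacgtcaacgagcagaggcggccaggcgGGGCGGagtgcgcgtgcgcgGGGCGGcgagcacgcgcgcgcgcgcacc
Tgfb1: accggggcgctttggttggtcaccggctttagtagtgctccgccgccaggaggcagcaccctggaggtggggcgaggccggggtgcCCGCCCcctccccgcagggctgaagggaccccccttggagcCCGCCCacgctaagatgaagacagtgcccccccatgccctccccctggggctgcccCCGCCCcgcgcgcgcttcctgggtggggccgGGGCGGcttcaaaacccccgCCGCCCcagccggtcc
Itgav: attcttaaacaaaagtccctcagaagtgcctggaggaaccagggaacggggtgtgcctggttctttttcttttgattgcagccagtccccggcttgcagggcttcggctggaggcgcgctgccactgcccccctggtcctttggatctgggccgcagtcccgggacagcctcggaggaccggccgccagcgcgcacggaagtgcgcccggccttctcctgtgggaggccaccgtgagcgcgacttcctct
Tgfbr1: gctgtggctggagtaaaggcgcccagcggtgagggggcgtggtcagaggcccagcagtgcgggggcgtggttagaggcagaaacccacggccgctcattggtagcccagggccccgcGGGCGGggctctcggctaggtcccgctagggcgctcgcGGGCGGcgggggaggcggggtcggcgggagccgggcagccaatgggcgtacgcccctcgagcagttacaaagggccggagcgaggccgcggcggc
The *Tgfb1* window held 5 GC boxes, the *Cd47*, *Cd36* and *Tgfbr1* windows 2 each, and the *Itgav* and *Tgfbr2* windows none of them. A GC box was found in 32.7% of all 32851 RefSeq windows of that length. The share of G and C was 75.2% for *Tgfb1*, 74.8% for *Tgfbr1*, 73.2% for *Cd47*, 64.4% for *Itgav*, 58.4% for *Tgfbr2* and 43.2% for *Cd36*, against a median of 52.4% over all windows. The other motifs searched on both strands were the E-box CACGTG (6.02% of all windows), the AP-1 motif TGANTCA (6.75%), the TATA box TATAAA (12.4%) and the CCAAT box CCAAT (33.8%). The first 3 were in 0 of the 6 member windows, and the CCAAT box occurred 2 times in *Tgfbr1*, 2 times in *Tgfbr2* and 1 time in *Cd36*. Such matches describe letters in these windows and do not show that a factor binds there. The start sites of *Cd47* and *Cd36* in RefSeq lie 55121 and 52905 bases inside the GENCODE gene bounds, so these genes have further upstream starts whose sequence is not shown.

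The libraries summed to between 914204 and 931697 TPM, and the read depth behind each value is unknown. Within a group, libraries correlated across genes with r between 0.945 and 0.991 on the log2(TPM + 1) scale, and the lowest values all involved *D/F* mouse 2. That mouse had the highest DMSO level of the stem cell factor receptor gene *Kit* among the *D/F* mice, 149 TPM against 50.5 and 60.9 TPM, and the lowest level of the granule gene *Mpo*, 1163 TPM against 3673 and 2646 TPM. Its summed level of the 9 megakaryocyte and platelet markers found in the table was 142 TPM with DMSO, against 35.6 and 45.0 TPM in the other *D/F* mice and 42.9 to 57.8 TPM in *T/F*. In the table as a whole, 8 of 8 myeloid progenitor markers were present and summed to between 4031 and 10353 TPM with DMSO and to between 882 and 4338 TPM with CCS1477 over both genotypes. Of these 8 genes, 1 was called lower with CCS1477 for *D/F* and 6 for *T/F* (limma adjusted p under 0.05), beside 6.51% and 17.6% of all genes. In a fit with the mouse as a block, all 8 were called lower in each genotype, where 39.3% and 54.1% of all genes were called in either direction, and their part in the falls of the members was not tested. The T cell genes *Cd3e* and *Trac* were listed but not found in the table. The listed T and B cell markers that had values summed to at most 25.7 and 26.8 TPM.

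*Thbs1* was among the most abundant messages of the DMSO cells, and with CCS1477 each mouse kept at most 10.1% of that level. In *D/F*, *Thbs1* stood at 879.8, 228 and 265 TPM with DMSO in mice 1, 2 and 3 and at 48.5, 11.2 and 11.0 TPM with CCS1477. In *T/F*, the gene stood at 478, 632 and 376 TPM with DMSO and at 40.9, 53.0 and 37.9 TPM with CCS1477. *D/F* mouse 1 was the highest of its genotype under both treatments, and the highest treated library, from *T/F* mouse 2, was below the lowest DMSO library, from *D/F* mouse 2.

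The *Thbs1* level left with CCS1477 was 5.51%, 4.89% and 4.16% of the DMSO level of the same mouse in *D/F*, with a mean of 4.85% ± 0.676 (SD, n = 3). In *T/F* it was 8.56%, 8.38% and 10.1%, with a mean of 9.01% ± 0.939 (SD, n = 3). The share left was thus lower in each *D/F* mouse than in each *T/F* mouse, in cells that had received the higher dose. The ratio of group means corresponds to a 19.4-fold lower level in *D/F* and an 11.3-fold lower level in *T/F*. On the log2(TPM + 1) scale the change was -4.29 in *D/F*, the 6th lowest of 15501 genes, next to the choline oxidation gene *Chdh* (-4.47) and the proto-oncogene *Myc* (-4.21). The *T/F* change of -3.45 was the 4th lowest of 15256 genes, again between *Chdh* (-3.71) and *Myc* (-3.45).

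By mean TPM, *Thbs1* ranked 256th of 15651 genes in *D/F* with DMSO and 6867th with CCS1477, and 247th and 4302nd in *T/F*. The 4 groups fell in the order *T/F* DMSO (495 ± 129 TPM), *D/F* DMSO (458 ± 366 TPM), *T/F* CCS1477 (43.9 ± 7.99 TPM) and *D/F* CCS1477 (23.6 ± 21.6 TPM; SD, n = 3 each). The DMSO groups overlapped (exact permutation test, two-sided, p = 0.9), and so did the CCS1477 groups (exact permutation test, two-sided, p = 0.3). The only step in this order that was free of overlap was the one between DMSO and CCS1477, which was the reason for choosing the gene.

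**Figure D1:**
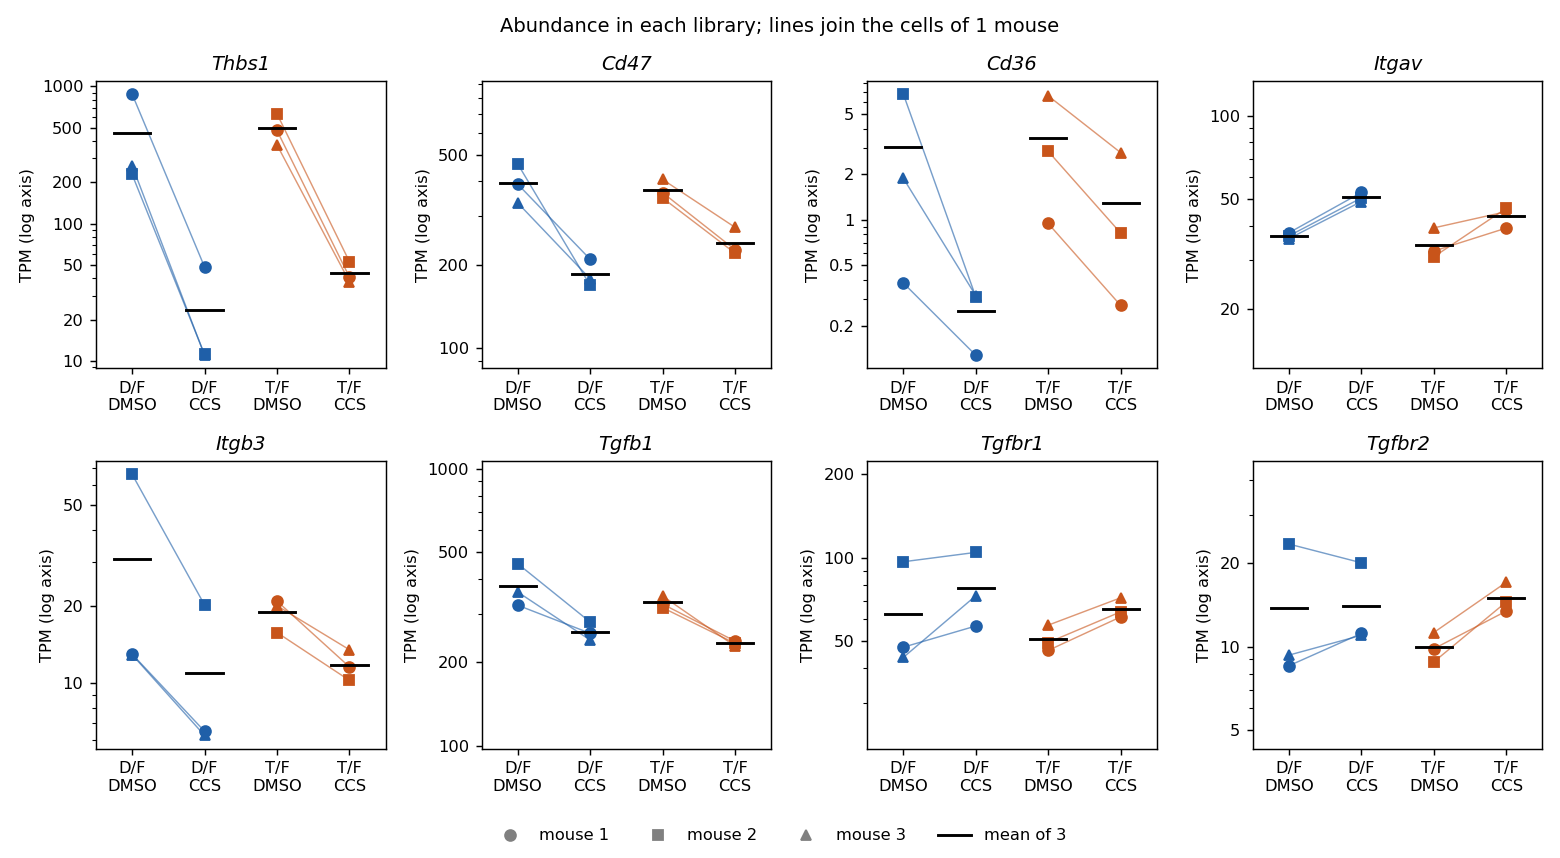
Abundance of the 8 members in each library, in TPM on a log axis, with *D/F* in blue, *T/F* in orange, a marker shape for each mouse, lines joining the DMSO and CCS1477 cells of 1 mouse and black bars for the mean of 3 mice. *Thbs1* with CCS1477 stood at 4.16% to 10.1% of its DMSO level, while *D/F* mouse 2 (squares) lay above the other *D/F* mice for *Itgb3*, *Tgfbr1* and *Tgfbr2*.

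*Cd47* encodes the widely expressed membrane protein that receives thrombospondin 1 and also gives phagocytes a signal not to engulf the cell. It was the receptor gene with the highest level among the members. Without the mouse as a block, it alone of the members' receptors was called lower in both genotypes. With the block, *Itgb3* was called lower in both as well. *Cd47* read 391, 463 and 335 TPM with DMSO in *D/F* and 209, 169 and 178 TPM with CCS1477. The *T/F* cells read 364, 349 and 407 TPM with DMSO and 227, 220.4 and 273 TPM with CCS1477. Each treated library lay below each DMSO library of its genotype. Here and for the other members, a log2 fold change is a difference of mean log2(TPM + 1), and a gene passed, or was called, where its p from limma, adjusted over all genes tested, was under 0.05. The change on the log2 scale was -1.09 in *D/F* (standard error, SE, 0.18, limma adjusted p = 0.0191) and -0.64 for *T/F* (SE 0.11, limma adjusted p = 0.00602). The cells of *D/F* mouse 2 had both the highest DMSO level and the lowest CCS1477 level, and kept 36.4% of *Cd47* against 53.6% and 53.2% in the other *D/F* mice and 62.2% to 67.2% in *T/F*. The *D/F* call was lost without *D/F* mouse 1 (log2 fold change -1.18, adjusted p = 0.185) and without *D/F* mouse 3 (-1.17, adjusted p = 0.213), fits in which limma called 0 of all genes. In *T/F* the call was lost without mouse 1 (limma adjusted p = 0.0638) and without mouse 2 (limma adjusted p = 0.0554).

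*Cd36* encodes a scavenger receptor for oxidized lipids and long-chain fatty acids through which thrombospondin 1 restrains blood vessel growth. It was the least abundant member, at 0.382, 6.79 and 1.88 TPM with DMSO in *D/F* and 0.127, 0.310 and 0.315 TPM with CCS1477. The *T/F* levels were 0.946, 2.84 and 6.61 TPM with DMSO and 0.271, 0.818 and 2.78 TPM with CCS1477. The level was lower with CCS1477 in each of the 6 mice, but mice of 1 group spread over a wide range and the *T/F* groups overlapped. The log2 fold change of -1.33 in *D/F* (limma adjusted p = 0.185) and of -0.90 in *T/F* (limma adjusted p = 0.277) did not pass. With the mouse as a block, which compares cells of the same mouse, *Cd36* passed in *T/F* (limma adjusted p = 0.00669) and not in *D/F* (limma adjusted p = 0.0865).

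*Itgav* encodes integrin αv, the partner of several β chains in receptors that bind matrix proteins and latent TGF-beta. *Itgav* was at 37.8, 36.8 and 36.0 TPM with DMSO in *D/F* and at 52.8, 50.4 and 49.0 TPM with CCS1477, the tightest *D/F* groups of any member. In *T/F* the levels were 32.4, 30.9 and 39.3 TPM with DMSO and 39.3, 46.3 and 45.0 TPM with CCS1477. The *D/F* groups were separate, and in *T/F* the highest DMSO library and the lowest CCS1477 library met at 39.3 TPM. On the log2 scale *Itgav* differed by 0.45 in *D/F* (SE 0.13, limma adjusted p = 0.0746) and by 0.34 for *T/F* (SE 0.12, limma adjusted p = 0.0589), and neither passed. With the mouse as a block both passed (adjusted p = 0.0202 and 0.0454 from limma). In the fit of all 12 libraries, with genotype as a covariate, *Itgav* was higher with CCS1477 by 0.40 log2 units (SE 0.08, limma adjusted p = 0.00152, higher in 6 of 6 mice).

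*Itgb3* encodes integrin β3, which joins integrin αv in the vitronectin receptor and integrin αIIb on platelets. *Itgb3* had 13.0, 66.0 and 12.9 TPM with DMSO in *D/F* and 6.47, 20.3 and 6.23 TPM with CCS1477. The *T/F* mice had 21.0, 15.8 and 20.1 TPM with DMSO and 11.6, 10.3 and 13.5 TPM with CCS1477. *D/F* mouse 2 stood apart under both treatments, the *D/F* groups overlapped, and the *T/F* groups did not. A log2 change of -0.64 passed in *T/F* (SE 0.14, limma adjusted p = 0.0148), and one of -1.17 in *D/F* did not (SE 0.73, limma adjusted p = 0.330). In *D/F* it passed with the mouse as a block (limma adjusted p = 0.0151) and without *D/F* mouse 2 (log2 fold change -0.93, limma adjusted p = 0.0158). The mouse with the high *Itgb3* was the one with the high sum of megakaryocyte and platelet markers, among them *Pf4*, at 67.0 TPM with DMSO against 11.9 and 19.4 TPM in the other *D/F* mice. The marker sum was lower with CCS1477, as *Itgb3* was, at 27.4 to 56.3 TPM beside 35.6 to 142 TPM with DMSO in *D/F* and at 32.7 to 42.3 TPM beside 42.9 to 57.8 TPM in *T/F*. Of these markers 0 of 9 passed in *D/F*, while in *T/F* 4 of 8 passed as lower, beside 17.6% of all genes, and 1 as higher. Of those 4, *Ppbp* and *Gp5* had entered the test through the DMSO group alone. The fit with the block called 3 of 9 lower in *D/F*, among them *Pf4* (limma adjusted p = 0.0143). In *T/F* it called 1 higher and 5 of 8 lower, with *Pf4* among the lower ones too (limma adjusted p = 0.00608). These counts stand beside 39.3% and 54.1% of all genes called in either direction. These blocked calls include *Ppbp* in both genotypes and *Gp5* in *T/F*, which also entered through the DMSO group alone. Their part in the change of *Itgb3* was not tested. In bulk RNA, fewer cells of a type and less RNA per cell cannot be told apart.

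*Tgfb1*, which encodes the TGF-beta cytokine that is made in a latent form by most blood cells, was nearly as abundant as *Cd47* with DMSO. It was at 322, 454 and 359 TPM with DMSO in *D/F* and at 255, 279.7 and 241 TPM with CCS1477. *T/F* cells were at 325, 315 and 347 TPM with DMSO and at 239, 234 and 229 TPM with CCS1477. Treated and DMSO libraries did not overlap in either genotype, and 61.6% to 79.2% of the DMSO level was left in the *D/F* mice and 66.0% to 74.4% in the *T/F* mice. A log2 fold change of -0.49 passed in *T/F* (SE 0.06, limma adjusted p = 0.00251). In *D/F* it was -0.54 (SE 0.18), with an adjusted p of 0.103 from limma and of 0.0261 with the mouse as a block. Over both genotypes *Tgfb1* changed by -0.51 on the log2 scale (SE 0.09, limma adjusted p = 0.000634, lower in 6 of 6 mice).

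The genes of both TGF-beta receptors were higher with CCS1477 in *T/F* and did not pass in *D/F*, also with the mouse as a block. *Tgfbr1*, which encodes the receptor kinase that phosphorylates SMAD2 and SMAD3, was at 47.6, 96.8 and 43.7 TPM with DMSO in *D/F* and at 56.7, 105 and 72.9 TPM with CCS1477. In *T/F* it was at 46.3, 49.5 and 57.1 TPM with DMSO and at 61.2, 63.8 and 71.7 TPM with CCS1477. Each of the 6 mice was higher with CCS1477, the *T/F* groups were separate and the *D/F* groups overlapped around the high level of mouse 2. In both genotypes the log2 fold change came to 0.36, with an adjusted p of 0.0373 from limma in *T/F* (SE 0.11) and of 0.553 in *D/F* (SE 0.37).

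*Tgfbr2* encodes the ligand-binding receptor of the pair and was the less abundant of them. *Tgfbr2* had 8.54, 23.5 and 9.33 TPM with DMSO in *D/F* and 11.2, 20.1 and 11.0 TPM with CCS1477. The *T/F* mice had 9.84, 8.81 and 11.3 TPM with DMSO and 13.4, 14.5 and 17.1 TPM with CCS1477. The *T/F* groups were separate, whereas in *D/F* mice 1 and 3 were higher with CCS1477 and mouse 2 was lower, the only case in which a mouse went against the other 5 in any member. The log2 fold change of 0.55 passed in *T/F* (SE 0.12, limma adjusted p = 0.0149) and that of 0.12 in *D/F* did not (SE 0.42, limma adjusted p = 0.885). Both *T/F* calls of the TGF-beta receptors were lost when mouse 1 was left out (adjusted p = 0.128 for *Tgfbr1* and 0.0671 for *Tgfbr2* from limma) and when mouse 2 was left out (adjusted p = 0.187 and 0.108 from limma). That of *Itgb3* was lost without mouse 1 (limma adjusted p = 0.114).

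**Figure D2:**
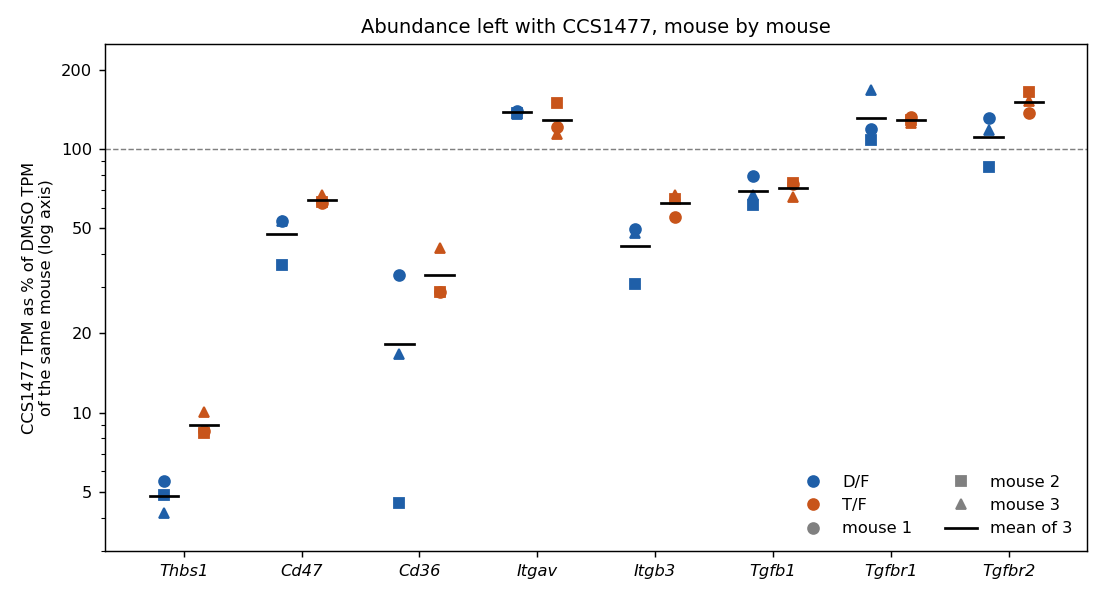
CCS1477 level of each member as a percentage of the DMSO level of the same mouse, on a log axis, with *D/F* in blue, *T/F* in orange, a marker shape for each mouse, black bars for the mean of 3 mice and a dashed line at 100%. *Thbs1* lay at 4.16% to 10.1%, *Cd47* and *Tgfb1* between 36.4% and 79.2%, and *Itgav* and *Tgfbr1* above 100% in all 6 mice.

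Of the 7 members other than *Thbs1*, 1 passed in *D/F*, where *Cd47* was lower and none was higher. Over all genes tested in *D/F*, 6.51% passed as lower and 5.14% as higher. In *T/F*, 3 of the 7 passed as lower (*Cd47*, *Itgb3* and *Tgfb1*) and 2 as higher (*Tgfbr1* and *Tgfbr2*), beside 17.6% and 25.8% of all genes. Over both genotypes, 2 passed as lower (*Cd47* and *Tgfb1*) and 1 as higher (*Itgav*), beside 19.6% and 25.8% of all genes. With the mouse as a block, 4 of the 7 passed in *D/F*, where 39.3% of all genes did, and all 7 passed in *T/F* and over both genotypes, where 54.1% and 60.3% of all genes did. Without *D/F* mouse 2, 2 passed in *D/F* and 6 over both genotypes. In *D/F* 0 members passed without mouse 1 or without mouse 3. Without the block, *Cd47* in *D/F* was the only one of these 7 members that passed above 2-fold. With the block, *Itgb3* in *D/F* also did so (-1.17, limma adjusted p = 0.0151).

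By mouse, 4 of these 7 members were lower with CCS1477 in 6 of 6 mice and 2 were higher in 6 of 6, which held for 24.2% and 31.8% of all 15583 genes tested. The 7 had a median log2 fold change of -0.54 in *D/F* and a value of -0.49 for *T/F*, beside 0.06 and 0.07 over all genes. The exact permutation test of TPM over 3 libraries against 3 reached its smallest possible two-sided p of 0.1 for 4 of the 7 members in *D/F* (*Cd47*, *Cd36*, *Itgav* and *Tgfb1*) and for 5 in *T/F* (*Cd47*, *Itgb3*, *Tgfb1*, *Tgfbr1* and *Tgfbr2*). These are the members whose groups did not overlap, beside 36.6% of all genes tested in *D/F* and 56.1% in *T/F*, and a design of 3 against 3 cannot go lower. *Cd36* had reached the 1 TPM needed for testing in *D/F* through the DMSO group alone (mean 3.02 TPM against 0.251 TPM with CCS1477), so its separation is a description.

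Several members differed between mice in the same way under both treatments. For *Thbs1*, *D/F* mouse 1 lay 1.22 above the mean of its group on the log2 scale with DMSO and 1.35 above it with CCS1477, while mice 2 and 3 lay below both means. For *Itgb3*, *D/F* mouse 2 lay 1.51 and 1.02 above, for *Tgfbr1* 0.71 and 0.46, and for *Tgfbr2* 0.87 and 0.54. *Cd47* was an exception, since *D/F* mouse 2 lay above the mean with DMSO and below it with CCS1477. The *D/F* mouse that was highest in *Thbs1* also had the highest sum of the 10 monocyte and macrophage markers found in the table with DMSO, 1412 TPM against 556 and 759 TPM. A single gene, *Ly6c2*, carried most of that difference, and the other 9 markers summed to 252, 196 and 202 TPM. The sums of all 10 were lower with CCS1477, at 173 to 597 TPM in the *D/F* mice and, in the *T/F* mice, 225 to 330 TPM beside 617 to 814 TPM with DMSO. As single genes, 6 of the 9 such markers tested in *D/F* passed as lower, and 6 of 10 did for *T/F*, beside 6.51% and 17.6% of all genes. In each genotype 2 of these 6 had entered the test through the DMSO group alone, in which they are high, so the direction of their difference was fixed by the filter. Blocked by mouse, 9 of 9 and 8 of 10 were lower, beside 39.3% and 54.1% of all genes called in either direction, and these calls include *Mrc1* and *Vcam1* in both genotypes and *C1qb* in *D/F*, which entered in that way. The platelet glycoprotein genes *Gp1bb* and *Gp6*, and the macrophage genes *C1qa* and *Marco*, were listed but not found in the table. Of 10 listed endothelial and stromal markers 3 were found, *Pecam1*, *Pdgfrb* and *Tagln*. *Tagln* was higher with CCS1477 in every mouse, and *Pecam1* made up most of the sum of the 3. That sum was 98.9 to 166 TPM with DMSO and 27.0 to 33.7 TPM with CCS1477 in *D/F*. In *T/F* these sums were 63.3 to 79.7 and 22.7 to 31.4 TPM. The 8 erythroid markers found, mostly *Tfrc*, summed to 170 to 285 TPM with DMSO and 73.7 to 147 TPM with CCS1477 in *D/F*. Their sums in *T/F* were 270 to 295 and 122 to 150 TPM. Of the endothelial and stromal markers, 1 of 3 passed as lower in each genotype. Of the erythroid markers, 0 of 6 did in *D/F* and 1 of 8 in *T/F*, beside 6.51% and 17.6% of all genes. Blocked by mouse, 2 of 3 and 1 of 6 were lower in *D/F*, and 1 of 3 and 4 of 8 in *T/F*. That is beside 39.3% and 54.1% of all genes in either direction. Whether these marker levels reflect cells of the types named, and their part in the levels of *Thbs1*, was not tested.

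**Figure D3:**
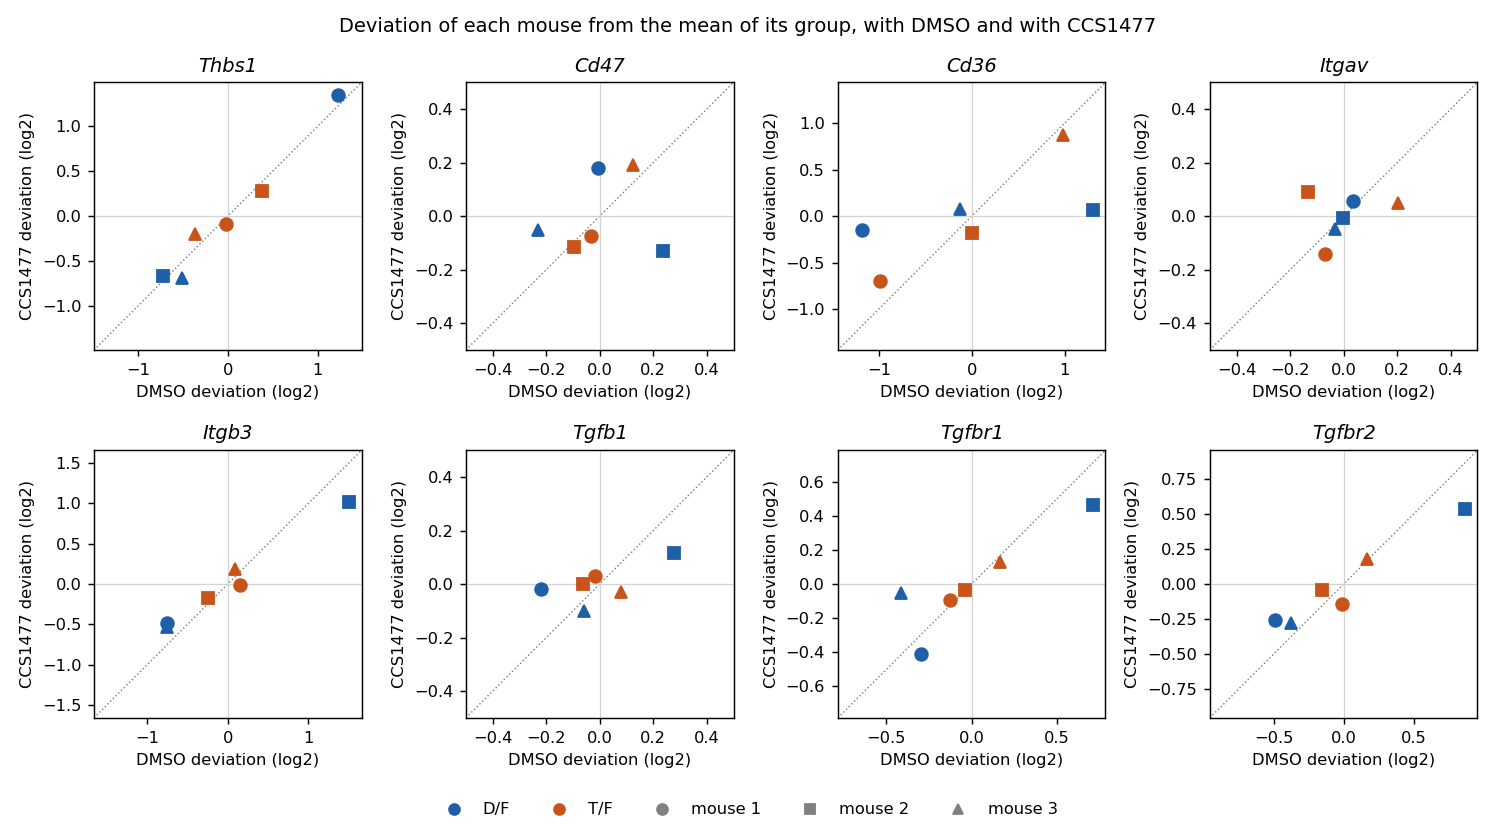
Deviation of each mouse from the mean of its group on the log2(TPM + 1) scale, with DMSO on the horizontal axis and with CCS1477 on the vertical axis, 1 panel per member, *D/F* in blue, *T/F* in orange and a dotted line where both deviations are equal. Mouse 1 of *D/F* (circle) is at the upper right for *Thbs1* (1.22 and 1.35), and mouse 2 of *D/F* (square) for *Itgb3*, *Tgfbr1* and *Tgfbr2*.

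Whether the response differed between the genotypes was tested with the interaction in a fit of all 4 groups. In this fit, which is unpaired and leaves the mouse out, no gene passed (0% of 15583 genes, 659 of them at an unadjusted p under 0.05 in limma). Thus none of the 7 members tested did. For *Cd47* the *T/F* response was less negative by 0.45 on the log2 scale (95% interval -0.01 to 0.91, limma unadjusted p = 0.0556, adjusted p = 1.00). The intervals of this unpaired fit were wider for *Itgb3* (0.53, -1.30 to 2.36) and *Tgfbr2* (0.43, -0.63 to 1.49), and include sizable differences in either direction. Within mice, the *Itgb3* change spanned -1.66 to -0.91 for *D/F*, below the *T/F* span of -0.81 to -0.54. For *Tgfbr2* the *D/F* span of -0.21 to 0.35 lay below the *T/F* span of 0.42 to 0.66. The *Cd47* spans were apart too, while those of *Cd36*, *Itgav*, *Tgfb1* and *Tgfbr1* overlapped. A paired test of these differences is not given here. For *Tgfb1* the difference was 0.05 (-0.35 to 0.45) and for *Itgav* it was -0.11 (-0.46 to 0.24). The differences also hold that of dose, 4 against 2 μM, and any difference of sex that the Y-linked *Eif2s3y* marks.

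No member passed between the genotypes at either treatment. The test of *T/F* against *D/F* called 5 genes with DMSO (0.0328% of those tested) and 5 with CCS1477 (0.0329%), and 0 of the 8 members in either, where limma gave 939 and 1643 genes at an unadjusted p under 0.05. *Thbs1* was 0.36 higher in *T/F* with DMSO on the log2 scale (95% interval -0.93 to 1.65, limma adjusted p = 0.958), and 0.00 to 0.97 higher when 1 mouse at a time was left out. With CCS1477, *Thbs1* was 0.86 to 1.88 higher in *T/F* when 1 mouse at a time was left out, and it did not pass. The difference in *Cd47* with DMSO was -0.08 (95% interval -0.46 to 0.30) and that in *Tgfb1* was -0.19 (95% interval -0.57 to 0.20). With CCS1477, *Cd47* was 0.37 higher in *T/F* (95% interval 0.03 to 0.71, limma adjusted p = 0.431), *Itgav* differed by -0.22 and *Tgfb1* by -0.14, and for these 3 members the groups did not overlap (exact permutation test, two-sided, p = 0.1), beside 20.3% of all genes. *D/F* mouse 2 set the sign for several members, as *Itgb3* with DMSO was -0.25 in *T/F* against *D/F* with all mice and 0.51 without that mouse, and *Tgfbr1* changed from -0.20 to 0.15 and *Tgfbr2* from -0.30 to 0.14.

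The other genes of the pathway were followed in 7 lists that name 77 genes, of which 57 were in the table. In *D/F*, 4 of the 56 tested passed as higher and 3 as lower, beside 5.14% and 6.51% of all genes, and their median log2 fold change was -0.01 beside 0.06 over all genes. In *T/F*, 8 of 57 passed as higher and 10 as lower, beside 25.8% and 17.6% of all genes, with a median of 0.04 beside 0.07 over all genes. By mouse, 14 of the 57 were higher and 18 lower in 6 of 6 mice, beside 31.8% and 24.2% of all genes. With the mouse as a block, the *D/F* comparison called 12 listed genes higher and 15 lower and the *T/F* comparison 18 and 19, where 39.3% and 54.1% of all genes passed in either direction.

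Of the other thrombospondin genes listed, only *Thbs3* was found in the table. *Thbs3* stayed low, with group means of 0.681 and 1.88 TPM in *D/F* and 0.776 and 1.17 TPM in *T/F*, far below *Thbs1* in every group. Among 11 further partners of thrombospondin 1 and CD47 in the table, 0 passed as higher, and 2 of the 10 tested passed as lower in the *D/F* comparison and 3 of 11 in the *T/F* comparison, beside 6.51% and 17.6% of all genes. *Lrp1*, the endocytic receptor that clears thrombospondin 1 from the cell surface, was the gene of this list that passed above 2-fold in both genotypes. *Lrp1* was at 25.7, 14.9 and 26.9 TPM with DMSO in *D/F* and at 4.50, 1.79 and 4.13 TPM with CCS1477, and in *T/F* at 52.9, 66.4 and 30.6 TPM with DMSO and at 15.0, 20.6 and 8.55 TPM with CCS1477. The groups did not overlap, with log2 fold changes of -2.41 (SE 0.34, limma adjusted p = 0.0124) and -1.71 (SE 0.39, limma adjusted p = 0.0165). The other gene lower in both genotypes, named after its values were seen, was *Itga4*, which encodes the α chain of the integrin VLA-4 (-1.49 and -0.86), and in *T/F* the chaperone gene *Calr* passed as well (-0.44). *Sirpa*, which encodes the receptor for CD47 on phagocytes, did not pass (-0.72, adjusted p = 0.351, and -0.24, adjusted p = 0.511, from limma), but did in *D/F* with the mouse as a block (limma adjusted p = 0.0310). The block called 1 partner higher and 4 lower for *D/F*, and 2 higher and 4 lower for *T/F*, beside 39.3% and 54.1% of all genes in either direction.

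Of the 7 listed genes of TGF-beta latency and release that were in the table, 1 passed, and it did so as lower in both genotypes, beside 6.51% and 17.6% of all genes. Blocked by mouse, it was still the 1 gene called in *D/F*, and in *T/F* 1 gene was higher and 3 were lower, beside 39.3% and 54.1% of all genes in either direction. *Nrros* encodes the membrane protein that tethers latent TGF-beta1 on myeloid cells and macrophages. It was at 157, 195 and 191 TPM with DMSO in *D/F* and at 30.5, 36.9 and 37.4 TPM with CCS1477. *T/F* cells were at 208, 217 and 242 TPM with DMSO and at 71.1, 72.4 and 79.1 TPM with CCS1477. The libraries of a group lay close together and the groups were far apart, with log2 fold changes of -2.34 for *D/F* (SE 0.17, limma adjusted p = 0.0031) and -1.57 in *T/F* (SE 0.09, limma adjusted p = 0.000337). The response was larger in *D/F* by 0.77 on the log2 scale, the direction seen for *Thbs1*, in cells that had received the higher dose. The interaction did not pass in the fit that leaves the mouse out (limma unadjusted p = 0.00121, adjusted p = 0.768). Within mice, the *Nrros* change spanned -2.37 to -2.32 for *D/F*, well apart from the *T/F* span of -1.60 to -1.53. An interaction blocked by mouse is not given for *Nrros*. *Tgfb2* and *Tgfb3*, the genes of the other TGF-beta cytokines, were listed but not found in the expression table.

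Of 9 other receptors of the TGF-beta superfamily in the table, 2 passed as higher in the *D/F* comparison, beside 5.14% of all genes, and 3 passed as higher and 1 as lower in the *T/F* comparison, beside 25.8% and 17.6%. *Bmpr2*, the type II receptor for bone morphogenetic proteins, rose above 2-fold in both genotypes. Its levels were 14.2, 22.3 and 13.7 TPM with DMSO and 32.6, 37.2 and 33.5 TPM with CCS1477 in *D/F*, and 15.0, 17.3 and 16.6 TPM with DMSO and 34.4, 35.1 and 36.2 TPM with CCS1477 in *T/F*. The groups were separate in both genotypes, with log2 fold changes of 1.03 (limma adjusted p = 0.0337) and 1.07 (limma adjusted p = 0.000475). The other receptor genes that passed, named after their values were seen, were the type I receptor *Acvr1* (0.88 and 0.94, higher in both), the type II receptor *Acvr2b* (0.89, higher in *T/F*) and the endothelial type I receptor *Acvrl1* (-1.30, lower in *T/F*). Blocked by mouse, *Acvr2b* (0.70, limma adjusted p = 0.0309) and *Acvrl1* (-0.56, limma adjusted p = 0.0336) passed in *D/F* as well, and 5 receptors were higher and 2 lower there, beside 39.3% of all genes in either direction. For *T/F* the block called 4 higher and 1 lower, beside 54.1%.

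Of the 5 SMAD transducer genes in the table, 1 passed as higher in *D/F* and 2 in *T/F*, beside 5.14% and 25.8% of all genes. *Smad4*, the partner shared by TGF-beta and bone morphogenetic protein signals, rose in both genotypes (log2 fold change 0.83, adjusted p = 0.0344, and 0.67, adjusted p = 0.000979, from limma). *Smad1*, a transducer of bone morphogenetic protein signals, rose in *T/F* (0.42, limma adjusted p = 0.00449), and its relative *Smad5* did not pass (0.18 in *D/F* and 0.32 in *T/F*). Blocked by mouse, *Smad1* passed in *D/F* also (0.46, limma adjusted p = 0.0470), where 2 of the 5 were called higher, and all 5 were higher in *T/F*, beside 39.3% and 54.1% of all genes in either direction. Of 10 inhibitors of SMAD signaling, 1 passed as higher in *D/F*, beside 5.14% of all genes. In *T/F* 2 passed as higher and 2 as lower, beside 25.8% and 17.6% of all genes. The ubiquitin ligase gene *Smurf2* rose in both genotypes (0.99, adjusted p = 0.0190, and 0.78, adjusted p = 0.00103, from limma). The co-repressor gene *Ski* rose in *T/F* (0.80, limma adjusted p = 0.00133), where the co-repressor gene *Tgif2* was lower (-0.53, limma adjusted p = 0.00832). The inhibitory SMAD gene *Smad6*, named after its values were seen, also passed as lower in *T/F* (-0.26, limma adjusted p = 0.0466). In the fit with the block *Ski* (0.75, limma adjusted p = 0.0137) and *Tgif2* (-0.54, limma adjusted p = 0.0258) passed in *D/F* too. There 2 inhibitors were higher and 2 lower, and 3 were higher and 3 lower in *T/F*, beside 39.3% and 54.1% of all genes in either direction.

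Among 14 genes known to respond to TGF-beta, 0 passed in *D/F*, where 5.14% of all genes passed as higher and 6.51% as lower. In *T/F* 1 passed as higher and 3 as lower, beside 25.8% and 17.6% of all genes, and over both genotypes 1 and 6 did, beside 25.8% and 19.6%. The fit blocked by mouse called 2 of them higher and 6 lower for *D/F*, and 3 higher and 8 lower for *T/F*, beside 39.3% and 54.1% of all genes in either direction. The cell cycle inhibitor gene *Cdkn1c* was higher in *T/F* (log2 fold change 0.74, limma adjusted p = 0.0141), at group means of 0.623 TPM with DMSO and 1.71 TPM with CCS1477. *Cdkn1c* entered this test through the CCS1477 group alone, so the direction of its difference was fixed by the filter. Blocked by mouse, it passed in *D/F* as well (limma adjusted p = 0.00937), where both groups averaged over 1 TPM. The matrix protein gene *Tgfbi* was lower in *T/F* (-1.78, limma adjusted p = 0.0163), from 132 to 38.2 TPM, and in *D/F* group means of 64.5 and 16.5 TPM did not pass (-2.13, limma adjusted p = 0.118) unless the mouse was a block (limma adjusted p = 0.00882). The GTPase gene *Rhob* (-0.42) and, named after its values were seen, the fibronectin gene *Fn1* (-1.16) were lower in *T/F* as well, and *Fn1* also passed in *D/F* with the block (-1.22, limma adjusted p = 0.00775). The list had a median log2 fold change of -0.04 in *D/F* and of -0.45 for *T/F*.

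**Figure D4:**
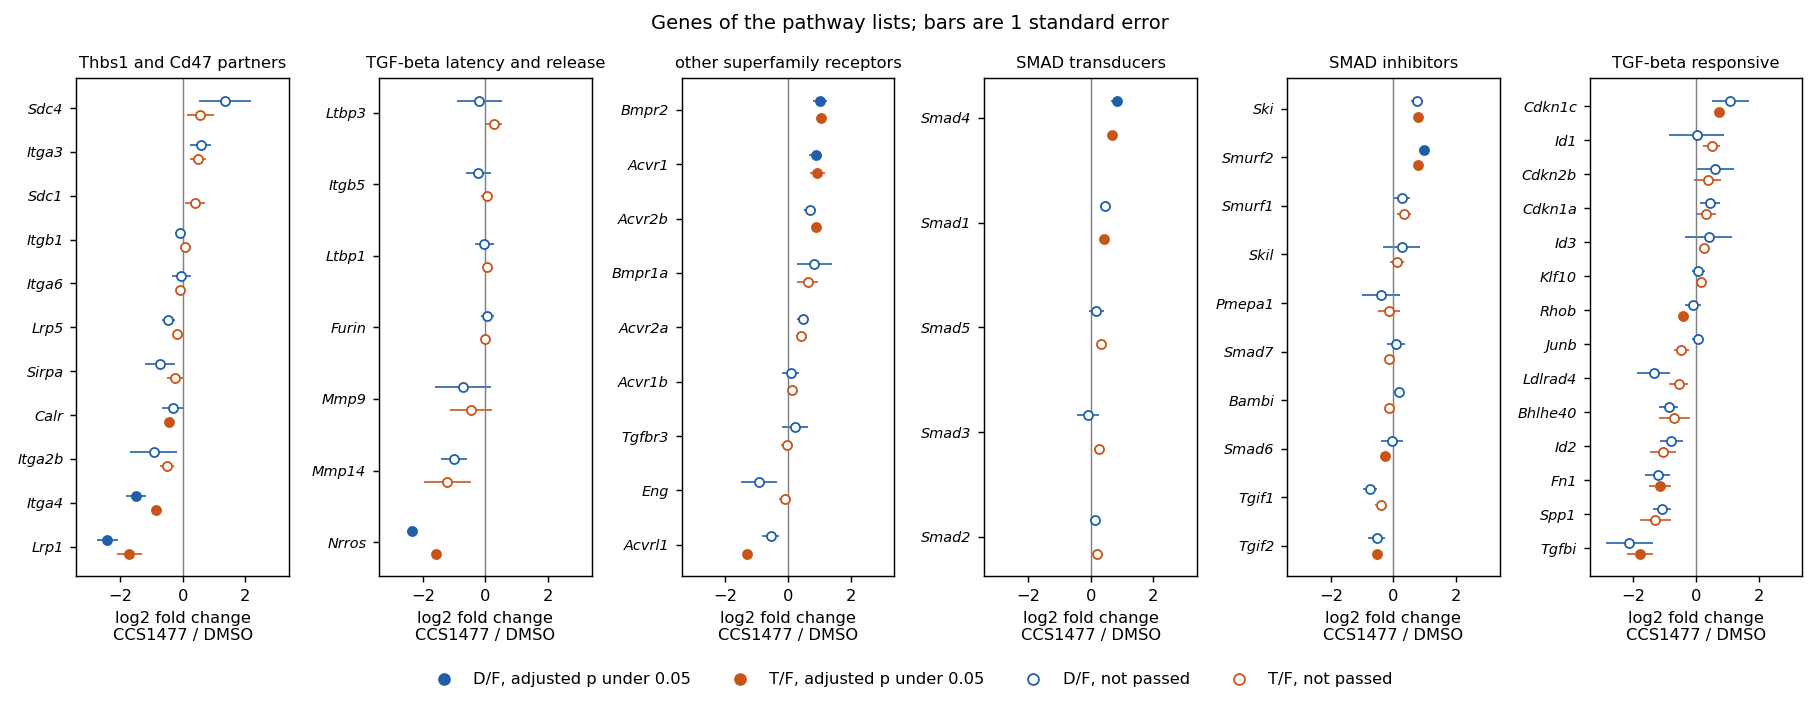
Log2 fold change with CCS1477 for the pathway genes in the table, *D/F* in blue and *T/F* in orange, with bars of 1 standard error and filled points where the adjusted p from limma was under 0.05. *Lrp1* (-2.41 and -1.71) and *Nrros* (-2.34 and -1.57) lie at the far left and *Bmpr2* (1.03 and 1.07) at the right.

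The genes whose levels were most like those of *Thbs1* over the 12 libraries were found by Pearson correlation of log2(TPM + 1), among 11603 genes averaging 5 TPM or more over all libraries. They were the myeloid receptor gene *Trem1* (r = 0.982), the lectin receptor gene *Clec4a2* (r = 0.981), the integrin αM gene *Itgam* (r = 0.979), *Gm11505* (r = 0.978) and the vesicle transport gene *Rab27a* (r = 0.974). All 5 were low in the 6 CCS1477 libraries, and the 12 libraries hold 2 treatments of 6 mice, so these values are descriptions without a p. *Itgam*, for example, was at 61.1 to 112 TPM with DMSO and at 11.7 to 34.3 TPM with CCS1477 over both genotypes. By Spearman correlation the 5 highest were *F10*, *B4galt6*, *Sema6b*, *Glrx* and *Sh3tc1*, and 0 of the 5 were shared, so the choice of measure sets the names. Of the members, *Cd47* was most like *Thbs1* (r = 0.907), *Tgfb1* followed (r = 0.688), and *Itgav* was the most opposed (r = -0.841).

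After the 4 group means were subtracted, which leaves the differences between mice, the genes most like *Thbs1* were *Scd2* (r = 0.971), *Smtnl2* (r = 0.961), *Selenbp1* (r = 0.960), *Acly* (r = 0.960) and *Eif2s3y* (r = 0.958). *Scd2* and *Acly* encode enzymes of fatty acid synthesis. *Scd2* was highest in *D/F* mouse 1 under both treatments, at 483 and 672 TPM against 196 to 223 TPM in the other *D/F* libraries, which is the mouse with the highest *Thbs1*. *Eif2s3y* lies on the Y chromosome. With DMSO it was at 82.0 TPM in *D/F* mouse 1, at 2.35 and 2.33 TPM in *D/F* mice 2 and 3, and at 63.0 to 104 TPM in *T/F*. With CCS1477 it was at 90.7, 2.92 and 3.01 TPM in *D/F* and at 70.0 to 93.5 TPM in *T/F*. The *D/F* mouse that differed in *Thbs1* thus differed in the Y-linked gene as well. Comparisons between the genotypes also hold any difference of sex that this gene marks, and its part in *Thbs1* was not tested. None of the other members followed *Thbs1* between mice, with r of 0.140 for *Cd47*, 0.106 for *Itgav* and between -0.532 and -0.618 for *Cd36*, *Itgb3*, *Tgfb1*, *Tgfbr1* and *Tgfbr2*.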

How the data were processed

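The authors deposited linear TPM values per gene and library, computed with kallisto per the labels, on mm10, and AltAnalyze 2.1.3 is named in the study's methods. The kallisto version, annotation and settings are not given in the sources used here. Replicates were not pooled. Every gene of the table reaches at least 2.00 TPM in some library, so the authors had left low genes out. TPM keeps no read counts, so no count model or interval for counting error was possible, and the precision of a value is the spread between 3 mice. Of 15651 Ensembl identifiers, 15252 had a symbol in GENCODE. All 12 columns were matched to samples by mouse, genotype and treatment.

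For tests, log2(TPM + 1), a scale that understates the change of low genes, went into limma 3.58.1 (R 4.3.3) without a trend, unpaired and two-sided. Genes averaging 1 TPM or more in a compared group were tested, p-values were adjusted over all of them by Benjamini-Hochberg, and those under 0.05 passed. Treated and DMSO libraries were compared in *D/F*, in *T/F* and over both, with genotype as a covariate, and the genotypes at each treatment. The study's methods state no block for these libraries. The labels give the same mouse number to the DMSO and CCS1477 libraries of a mouse, and their deviations from the group means correlated with r between 0.354 and 0.669 for the same mouse and at most 0.141 for different mice, so a fit with the mouse as a block is given for the genes described whose call it changed, and as counts for each list described. Leave-one-out fits reduce a group to 2 mice. The code was tested on simulated data. Alternatives were other pseudocounts (0.1), filters (5 TPM or none), scalings, a trend, the block, a shared fit and leaving out each mouse.

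The members and gene lists were chosen with earlier results of these data known. All members are named, and of each list the genes that passed above 2-fold in both genotypes or else up to 3 with the lowest adjusted p in *T/F*.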

Additional observations from a re-analysis of the deposited data

Results flagged for a closer look

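For 2 genes of the pathway lists, all 3 *D/F* mice moved in a single direction with CCS1477 and all 3 *T/F* mice the other. *Smad3*, a transducer of TGF-beta, kept 90.8% to 98.6% of its DMSO level in *D/F* mice and reached 111% to 132% in *T/F* mice, a difference between the responses of 0.35 on the log2 scale (unadjusted p = 0.420, adjusted p = 1.00 from limma). *Bambi*, which encodes a decoy receptor, reached 112% to 129% in *D/F* mice and kept 76.0% to 93.4% in *T/F* mice, a difference of -0.32 (unadjusted p = 0.0851, adjusted p = 1.00 from limma). Neither difference passed, also with the mouse as a block (adjusted p = 0.238 and 0.265).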

How the results depend on the processing

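The fall of *Thbs1* kept its direction under every alternative, with log2 fold changes of -4.35 to -4.20 in *D/F*, -3.53 to -3.39 in *T/F* and -3.99 to -3.75 over both when 1 mouse was left out. Of 578 values of single members under an alternative, 521 were counted as the same, 33 passed in addition, 12 no longer passed and 12 reversed. For tested values, the same means that side of the threshold and direction were kept. The 521 include untested *Thbs1* values over both genotypes and for the difference between responses. Those kept their direction and stayed within the SD of the change between mice.

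In *D/F*, 1805 genes, 1 member and 7 pathway genes passed. They became 2846 genes with quantile normalization and 4940 genes, 3 members and 16 pathway genes in a shared fit of 4 groups. 2 members passed with a filter at 5 TPM, with libraries rescaled to the same median and with a trend, and 4 pathway genes passed above 2-fold. Leaving out 1 mouse gave 0 to 3739 genes, 0 to 2 members and 0 to 16 pathway genes, with 0 of each without mouse 1 or mouse 3 and the highest without mouse 2. In *T/F*, 6620 genes, 5 members and 18 pathway genes became 3713, 3 and 11 in the shared fit, 0 members and 6 pathway genes above 2-fold, and 3192 to 5122 genes, 1 to 5 members and 11 to 21 pathway genes when 1 mouse was left out. Over both genotypes, 3 members and 22 pathway genes became 0 and 7 above 2-fold. 5 members passed with rescaled or quantile-normalized libraries, and 3 to 6 with 1 mouse left out. The cause was not tested.

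With the replicate block (mouse), 6098 genes, 4 members and 27 pathway genes passed in *D/F*, 37 pathway genes in *T/F*, and 7 members and 37 pathway genes over both. Chosen after seeing the data, the block without *D/F* replicate 2 gave 5015 genes, 3 members and 21 pathway genes in *D/F*, and 7 members and 40 pathway genes over both.

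Between genotypes, 5 genes with DMSO became 9 with a filter at 5 TPM, 9 with quantile normalization, 20 in the shared fit and 4 to 9 with 1 mouse left out, and 5 with CCS1477 became 11 with a trend, 71 in the shared fit and 2 to 27 with 1 mouse left out. The 12 reversals each left out 1 mouse. In the difference between responses, *Cd36* ranged from -0.19 (without *D/F* mouse 2) to 0.95, *Tgfb1* from -0.034 (without *D/F* mouse 2) to 0.15 and *Tgfbr1* from -0.13 to 0.18, above 0 without *D/F* mouse 3 and without *T/F* mouse 3 (0.02). With DMSO, *Cd36* ranged from -0.30 (without *D/F* mouse 1; -0.20 without *T/F* mouse 3) to 0.95. Without *D/F* mouse 2 the highest values were *Cd47* 0.042, *Itgb3* 0.51, *Tgfbr1* 0.15 and *Tgfbr2* 0.14, and the lowest without another mouse were -0.19, -0.63, -0.41 and -0.54. With CCS1477, *Tgfbr1* ranged from -0.41 to 0.024 (without *D/F* mouse 2) and *Tgfbr2* from -0.0069 (without *D/F* mouse 3) to 0.40.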
